A study of Homo sapiens with 39 samples.

Results

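Expression of 10 genes taken here as readouts of estrogen action in breast cancer cells was followed across 6 estrogen receptor ligands: PGR, GREB1, TFF1, CA12, SIAH2, NPY1R, CELSR2, RAPGEFL1, RARA and RET. They were chosen by symbol from the table of expression values, with earlier results of these data known. Their counts beside shares of all symbols are therefore descriptive. All 10 were among the 46706 symbols of the table, and all 10 were among the 14404 symbols tested. Those tested averaged 1 or more TPM, a level scaled for transcript length and for the library total. The cells were HCC1428-LTED, a human breast cancer line adapted to long-term estrogen deprivation, grown in medium with charcoal-stripped serum and exposed for 24 h. The ligands were fulvestrant, SAR439859, GDC-SAR, AZD-SAR, GDC-0810 and AZD9496, each at 30 and 300 nM, and DMSO vehicle served as the control. From their names, 2 of these are read here as hybrids that carry the SAR439859 side chain. GDC-SAR is taken to have it on the GDC-0810 scaffold and AZD-SAR on the AZD9496 scaffold. GDC-0810 and AZD9496 are therefore called the scaffold donors below. Each of the 13 groups had 3 libraries, 39 in all, and every one came from the same estrogen-deprived line. The series text speaks of duplicates where the labels give 3 libraries a group, and the labels were followed.

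Estrogen receptor alpha is a ligand-activated transcription factor. When bound by estrogen it recruits coactivators to enhancers and promoters and raises the transcription of its target genes, and antagonists and degraders of the receptor lower these transcripts by blocking its activity or removing the protein. PGR, GREB1 and TFF1 are among the most widely used of these readouts in breast cancer cells. Other members of the list belong to the same estrogen-responsive luminal programme but act in unrelated processes, from retinoid and neuropeptide signalling to pH control.

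The labels do not say that the 3 libraries of a group came from separate cultures, so p-values measure the spread between these samples, which may be technical. TPM columns all sum to 1000000, and the sequencing depth is unknown. Between 15818 and 26756 symbols were above 0 in a library. The lowest number belonged to replicate 3 of 30 nM SAR439859, where 178 symbols averaging 5 TPM or more were listed at 0. Of the 3 DMSO libraries, 2 carried an index sequence that a treated library also carried, and whether the libraries were pooled or run together is not given in the sources used here. Luminal markers were high in all libraries (ESR1, the gene of the drug target, had a median of 404 TPM), and 6 of 8 stromal, endothelial and immune markers and all 7 basal and mesenchymal markers had medians under 1 TPM. The summed luminal level was 6588 to 13520 TPM in treated libraries and 6545 to 7403 TPM with DMSO, and in 9 of the 12 ligand groups all 3 libraries were above DMSO. The summed basal level was 3.56 to 4.75 TPM with 300 nM AZD-SAR and 0.552 to 1.41 TPM with DMSO. The part of these differences in the results was not tested. ESR1 itself averaged 366 ± 15.3 TPM with 300 nM SAR439859, 498 ± 80.6 TPM with 300 nM AZD9496 and 436 ± 24.9 TPM with DMSO (SD, n = 3 each). Its log2 difference from DMSO lay between -0.41 and 0.18 over the 12 ligand groups, and none passed the test (limma, lowest adjusted p = 0.0712). In bulk samples, fewer cells of a type and less RNA per cell cannot be told apart.

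Of the 10 members, 8 had windows in the RefSeq promoter table (GRCh38.p14, 250 bases before to 50 after each transcription start), 13 windows in all. GREB1 and TFF1 are the 2 without a window, so the motif counts do not cover them. These were searched on both strands for the consensus estrogen response element (GGTCA, a spacer of 3 bases and TGACC), for its arm GGTCA (or TGACC on the other strand) and for the GC box GGGCGG (or CCGCCC). The arm is contained in the full element, so the first search is a subset of the second. No member window held the full element or a copy with at most 1 mismatch, which 0.057% and 0.817% of all 35116 windows held. The arm occurred in 5 of the 13 member windows and in 37.4% of all windows. Of these 5, 2 are overlapping PGR windows that hold the same copy. The GC box occurred in 12 of 13 and in 45% of all windows. The windows of the 4 genes with an arm are shown. Of these, PGR, RAPGEFL1 and RARA had higher means with the scaffold donors than with the other ligands, and CA12 had lower means. CELSR2, NPY1R and RET also had higher means with the scaffold donors, and none of their windows held an arm. A relation between the arm and the ligands was not tested. Capitals mark the arm. The PGR window is chr11:101129028-101129327 on the minus strand, the RAPGEFL1 window chr17:40177220-40177519 on the plus strand, the RARA window chr17:40308930-40309229 on the plus strand, and the CA12 window chr15:63381797-63382096 on the minus strand.
PGR: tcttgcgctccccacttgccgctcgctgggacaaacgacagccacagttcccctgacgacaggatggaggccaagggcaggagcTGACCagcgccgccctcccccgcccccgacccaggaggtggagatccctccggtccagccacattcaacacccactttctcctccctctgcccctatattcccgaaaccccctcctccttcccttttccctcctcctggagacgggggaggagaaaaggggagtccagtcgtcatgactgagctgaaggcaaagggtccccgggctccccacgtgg
RAPGEFL1: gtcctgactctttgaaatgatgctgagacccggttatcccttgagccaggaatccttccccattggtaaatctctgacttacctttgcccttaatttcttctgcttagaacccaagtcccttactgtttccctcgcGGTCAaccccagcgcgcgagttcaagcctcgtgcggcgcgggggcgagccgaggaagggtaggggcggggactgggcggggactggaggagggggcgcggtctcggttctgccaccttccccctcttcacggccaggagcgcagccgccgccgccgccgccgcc
RARA: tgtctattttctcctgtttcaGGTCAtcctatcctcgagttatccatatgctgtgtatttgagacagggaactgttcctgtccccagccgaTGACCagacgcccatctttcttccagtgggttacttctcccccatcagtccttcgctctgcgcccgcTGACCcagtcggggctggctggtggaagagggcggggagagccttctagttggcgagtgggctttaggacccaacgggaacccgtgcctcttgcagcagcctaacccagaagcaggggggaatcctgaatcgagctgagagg
CA12: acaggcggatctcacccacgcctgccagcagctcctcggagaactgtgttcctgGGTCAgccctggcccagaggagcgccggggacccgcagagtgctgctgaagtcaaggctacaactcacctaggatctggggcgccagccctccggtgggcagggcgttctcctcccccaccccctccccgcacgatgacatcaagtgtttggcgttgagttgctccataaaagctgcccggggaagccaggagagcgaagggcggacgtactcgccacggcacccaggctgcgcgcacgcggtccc

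Counted from the start site, the arm began at position -166 in PGR, -114 in RAPGEFL1 and -196 in CA12. RARA held 3 copies, at -229, -159 and -92. A letter match is a description of the window and not evidence of binding. Enhancers outside these windows were not analysed here.

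Most of the 10 members were lower with fulvestrant, SAR439859, both hybrids and GDC-0810 than with DMSO, and fewer passed the test with AZD9496. With 30 and 300 nM, 9 and 9 of the 10 members fell with fulvestrant, where 7.82% and 8.12% of all symbols tested fell. SAR439859 lowered 9 and 9 members, where 10.2% and 12.8% of all symbols fell. The hybrids lowered 8 and 9 (GDC-SAR; 11.1% and 10.5% of all symbols) and 8 and 8 (AZD-SAR; 8.66% and 12.8%). With GDC-0810 the counts were 7 and 9, against 8.83% and 9.04% of all symbols, and with AZD9496 they were 4 and 5, against 2.05% and 2.21%. A call was an adjusted p under 0.05 in limma with Benjamini-Hochberg adjustment over all symbols tested. Only CA12 was called higher, with 30 nM fulvestrant and 30 nM SAR439859, where 11.3% and 15.3% of all symbols rose.

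The median log2 difference of the 10 members from DMSO at 300 nM was -2.26 with SAR439859, -2.20 with AZD-SAR, -1.89 with GDC-SAR, -1.75 with fulvestrant, -0.70 with GDC-0810 and -0.52 with AZD9496. Over all symbols tested the median at that dose lay between 0 (GDC-0810) and 0.10 (AZD9496). With 30 nM AZD9496 it was 0.18, where the median of the 10 members was -0.29. All differences are on the log2(TPM + 1) scale, which understates the change of low genes, and the 12 comparisons share the DMSO libraries. PGR, GREB1, TFF1 and NPY1R fell with all 6 ligands at both doses, CELSR2 and RET with all but AZD9496, and RAPGEFL1 with neither scaffold donor.

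**Figure D1:**
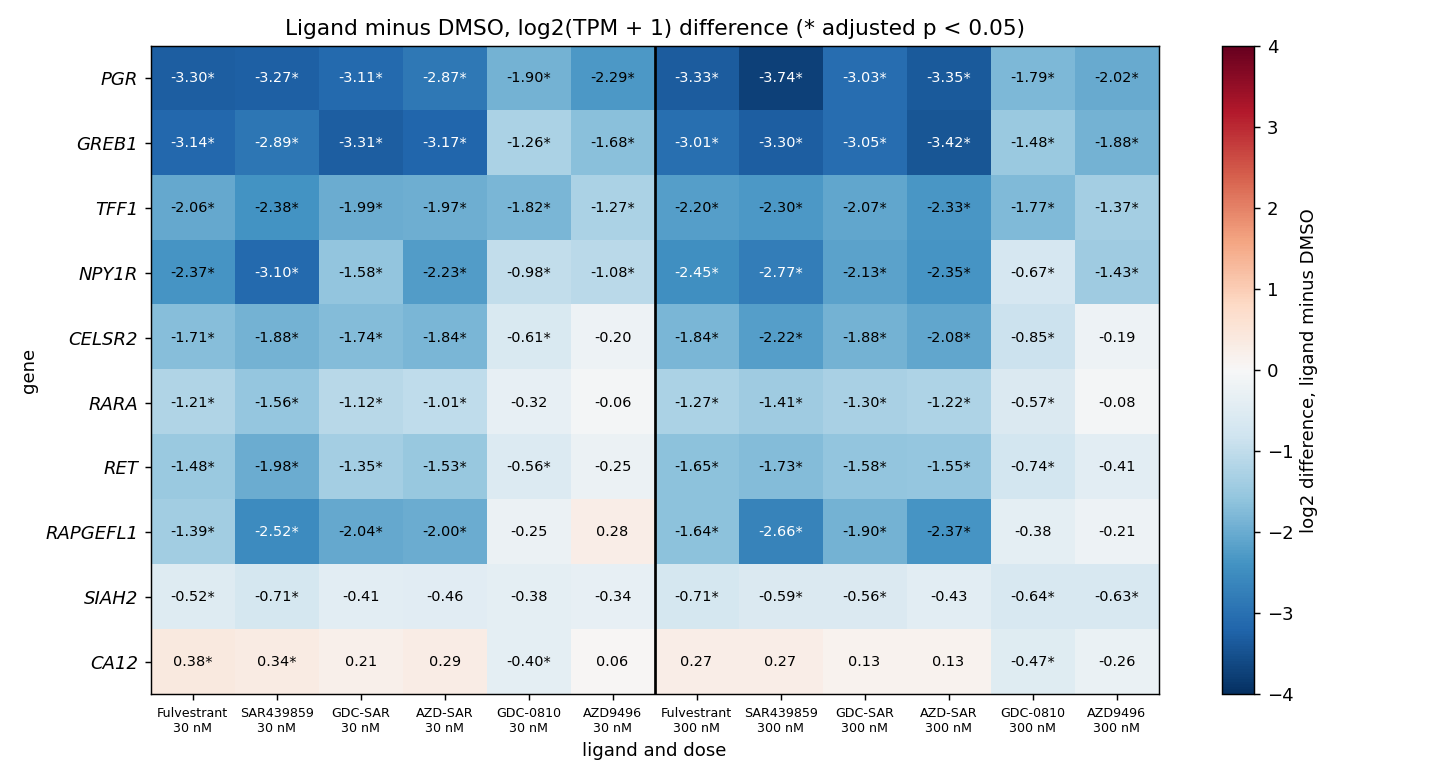
Log2(TPM + 1) difference from DMSO for each gene (rows) with each ligand at 30 nM (left) and 300 nM (right); colour and number give the difference, and an asterisk marks an adjusted p under 0.05. PGR and GREB1 reach -3.74 and -3.42, whereas RARA stays at -0.08 with 300 nM AZD9496.

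PGR encodes the progesterone receptor, a nuclear receptor (ENSG00000082175, chromosome 11, 101029624 to 101130524, minus strand, GENCODE v29 on GRCh38). At 300 nM it had 1.49, 1.79 and 1.80 TPM with SAR439859, 2.05, 2.26 and 3.46 with AZD-SAR, 2.65, 3.47 and 4.22 with GDC-SAR, and 2.004, 2.33 and 3.56 with fulvestrant. The scaffold donors gave 9.06, 9.20 and 9.99985 TPM (GDC-0810) and 6.96, 7.66 and 9.27 TPM (AZD9496), and DMSO gave 29.2, 31.3 and 47.0 TPM. All 36 treated libraries were below the lowest DMSO library. Group by group over the 12 groups, 8.39% to 21.9% of all symbols tested had all 3 treated libraries below all 3 DMSO libraries. The share that did so in every group was not counted. The 6 donor libraries lay above the 12 of the other 4 ligands at each dose. The mean was 4.73% of the DMSO mean with 300 nM SAR439859 and 26.3% with 300 nM GDC-0810. The log2 differences ran from -3.74 (limma, adjusted p = 3.51e-14) to -1.79 (limma, adjusted p = 1.03e-06) over the 12 comparisons, each with SE 0.205.

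RARA, the gene of retinoic acid receptor alpha (ENSG00000131759, chromosome 17, 40309192 to 40357643, plus strand), was not called different from DMSO with AZD9496 at either dose. It had 12.1, 14.2 and 14.4 TPM with 300 nM SAR439859, 12.97, 16.7 and 17.4 with AZD-SAR, 13.5, 14.8 and 15.9 with GDC-SAR, and 12.9, 15.4 and 17.2 with fulvestrant. With 300 nM GDC-0810 it had 21.7, 25.7 and 28.5 TPM, with AZD9496 34.3, 34.6 and 38.2 TPM, and with DMSO 37.1, 37.4 and 38.8 TPM. The AZD9496 libraries overlapped the DMSO libraries, and those of the other 5 ligands did not. RARA fell by 1.41 on the log2 scale with 300 nM SAR439859 (SE 0.124; limma, adjusted p = 6.54e-10), and the difference with 300 nM AZD9496 was -0.08 (95% interval -0.33 to 0.17; limma, adjusted p = 0.798). With 30 nM GDC-0810 it was -0.32 (limma, adjusted p = 0.0746), which became a call of -0.32 (adjusted p = 0.028) under median-of-ratios scaling.

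GREB1, an estrogen-induced coregulator of the receptor (ENSG00000196208, chromosome 2, 11482341 to 11642788, plus strand), had 0.818, 0.877 and 1.13 TPM with 300 nM AZD-SAR and 5.49, 6.21 and 7.71 TPM with 300 nM GDC-0810, against 17.9, 20.6 and 20.7 TPM with DMSO. The 3 groups did not overlap. At 30 nM, SAR439859 gave 1.001, 1.03 and 4.37 TPM, so 1 library lay just under the lowest scaffold donor library at that dose, 4.60 TPM. That library, replicate 1, was the highest of its group for every member but NPY1R and RET. It had the largest median-of-ratios factor of all libraries (1.187). Without it, SIAH2 was called lower with SAR439859 than with AZD9496 and GDC-0810 (limma, adjusted p = 0.0175 and 0.0346), and TFF1 lower than with GDC-0810 (0.0451). RARA was then called higher with AZD-SAR and GDC-SAR than with SAR439859 (limma, adjusted p = 0.0212 and 0.0435). GREB1 fell by 3.42 on the log2 scale with 300 nM AZD-SAR (SE 0.257; limma, adjusted p = 4.83e-11) and by 1.26 with 30 nM GDC-0810 (limma, adjusted p = 0.00109), the largest and smallest of its 12 differences.

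TFF1 encodes a secreted trefoil peptide (ENSG00000160182, chromosome 21, 42362282 to 42366594, minus strand) and had the highest level of the 10 genes in TPM. It had 465, 551 and 720 TPM with 300 nM AZD-SAR, 702, 900 and 941 TPM with GDC-0810 and 1057, 1092 and 1180 TPM with AZD9496, against 2262, 2986 and 3471 TPM with DMSO. At that dose the AZD9496 libraries lay above those of GDC-0810, and the GDC-0810 libraries overlapped those of AZD-SAR. AZD9496 minus GDC-0810 was 0.55 at 30 nM and 0.40 at 300 nM, and neither was called (limma, adjusted p = 0.133 and 0.244). The fall was 2.33 with 300 nM AZD-SAR and 1.37 with 300 nM AZD9496 on the log2 scale (SE 0.196; limma, adjusted p = 3.91e-10 and 3.81e-05).

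**Figure D2:**
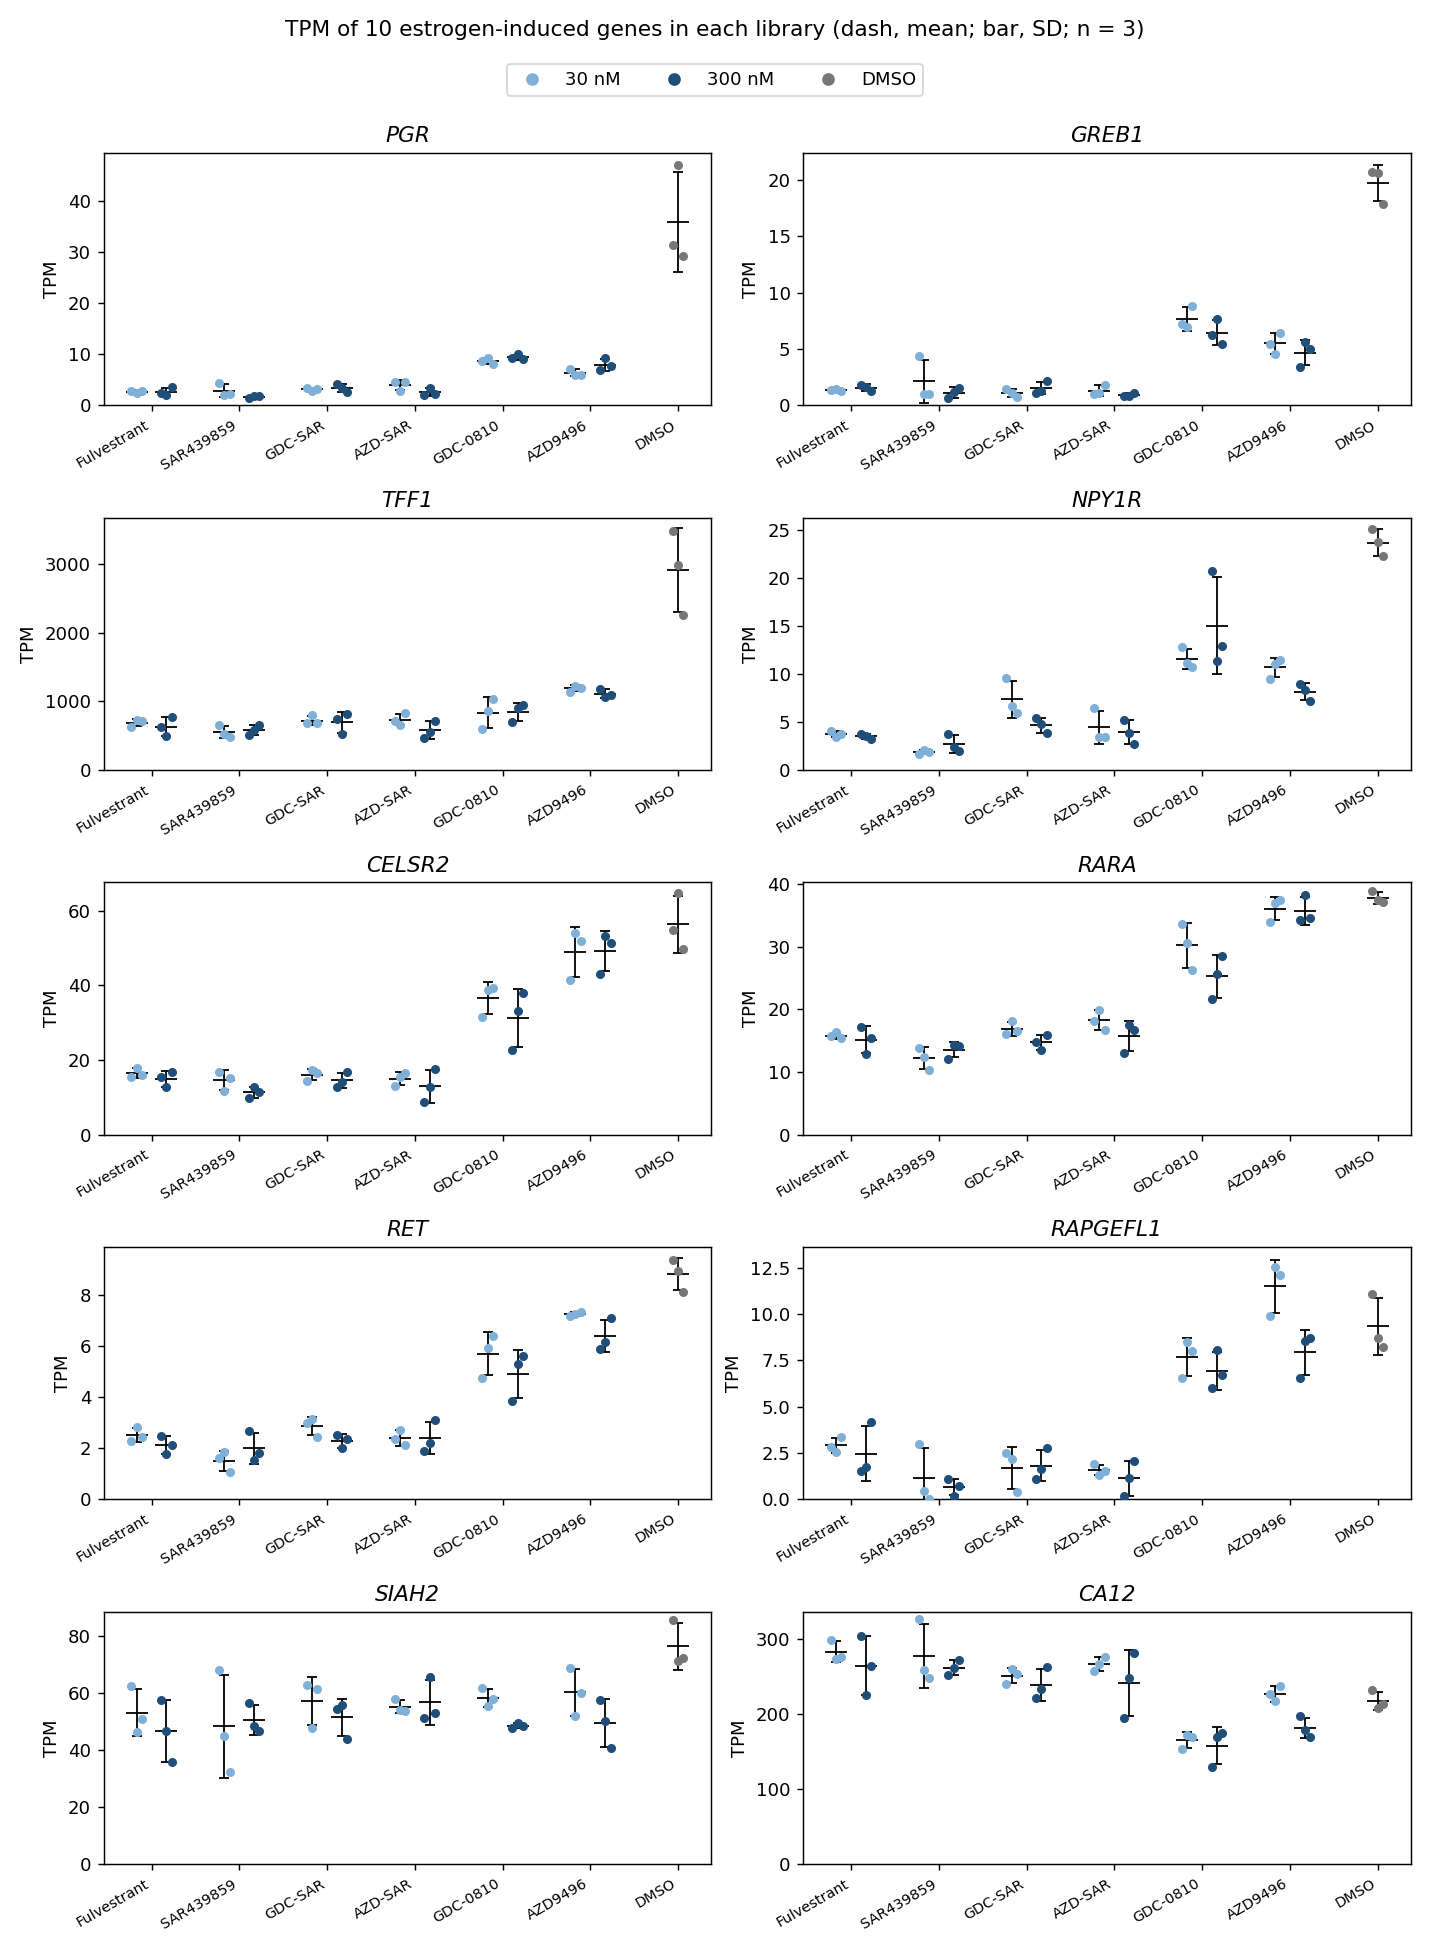
TPM of each gene in each library (points), with the mean (dash) and SD (bar) of 3 libraries, for 6 ligands at 30 nM (light) and 300 nM (dark) and for DMSO (grey); each panel has its own axis from 0. CELSR2, RARA and RAPGEFL1 with AZD9496 overlap DMSO, while PGR with every ligand lies below 29.2 TPM.

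NPY1R, a neuropeptide Y receptor gene (ENSG00000164128, chromosome 4, 163323961 to 163344832, minus strand), was lowest with 30 nM SAR439859, at 1.63, 1.90 and 2.09 TPM. It had 5.92, 6.66 and 9.57 TPM with 30 nM GDC-SAR, 10.8, 11.1 and 12.8 TPM with 30 nM GDC-0810, and 22.2, 23.7 and 25.0 TPM with DMSO. With 300 nM GDC-0810 the libraries were spread over 11.3, 12.9 and 20.7 TPM, the highest just under DMSO. The log2 differences were -3.10 with 30 nM SAR439859 (SE 0.212; limma, adjusted p = 4.19e-12) and -0.67 with 300 nM GDC-0810 (limma, adjusted p = 0.0305). At that dose of GDC-0810 the adjusted p of NPY1R missed the threshold with a pseudocount of 0.1 (limma, 0.0537), with no expression filter (0.0752), and when any of 5 of the 6 libraries compared was left out (up to 0.159). NPY5R overlaps NPY1R on the opposite strand and reached at most 0.185 TPM.

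RET, a receptor tyrosine kinase gene (ENSG00000165731, chromosome 10, 43077027 to 43130351, plus strand), had 1.53, 1.80 and 2.66 TPM with 300 nM SAR439859, 3.86, 5.32 and 5.601 TPM with GDC-0810 and 5.90, 6.18 and 7.12 TPM with AZD9496, against 8.14, 8.95 and 9.39 TPM with DMSO. Every treated library was below every DMSO library. Group by group, 8.39% to 21.9% of all symbols tested had all 3 libraries below DMSO, and the share over all groups was not counted. The differences were -1.73 with SAR439859 (SE 0.163; limma, adjusted p = 2.4e-09) and -0.74 with GDC-0810 (limma, adjusted p = 0.0023), and -0.41 with AZD9496 did not pass (95% interval -0.74 to -0.08; limma, adjusted p = 0.148).

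CELSR2 encodes a cadherin of the adhesion G-protein-coupled receptor family (ENSG00000143126, chromosome 1, 109250019 to 109275750, plus strand). At 300 nM it had 9.79, 11.5 and 12.7 TPM with SAR439859, 8.77, 12.7 and 17.6 with AZD-SAR, 12.8, 14.0 and 16.8 with GDC-SAR, and 12.7, 15.4 and 16.8 with fulvestrant. It had 22.8, 33.1 and 38.0 TPM with GDC-0810 and 43.0, 51.2 and 53.2 TPM with AZD9496, against 49.7, 54.7 and 64.7 TPM with DMSO. AZD9496 overlapped DMSO, GDC-0810 lay between, and the other 4 ligands lay below both. CELSR2 fell by 2.22 on the log2 scale with 300 nM SAR439859 (SE 0.189; limma, adjusted p = 3.29e-10) and by 0.85 with 300 nM GDC-0810 (limma, adjusted p = 0.00247). The value with 300 nM AZD9496 was -0.19 (95% interval -0.58 to 0.19; limma, adjusted p = 0.643).

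The calls of CELSR2, RET and CA12 with 30 nM GDC-0810 (-0.61, -0.56 and -0.40) rested on few libraries: each lost its call without replicate 1 of that group, without DMSO replicate 1 and without DMSO replicate 2 (limma, adjusted p from 0.0517 to 0.137). The number of members lower with 30 nM GDC-0810 was then 4 in place of 7.

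RAPGEFL1, named for its likeness to guanine nucleotide exchange factors of Rap proteins (ENSG00000108352, chromosome 17, 40177010 to 40195656, plus strand), had the lowest mean TPM of the 10 with SAR439859 at both doses. It had 0.188, 0.744 and 1.08 TPM with 300 nM SAR439859 and 6.53, 8.53 and 8.70 TPM with 300 nM AZD9496, against 8.23, 8.69 and 11.1 TPM with DMSO. With 30 nM SAR439859 it had 3.001 and 0.442 TPM in 2 libraries and was listed at 0 in replicate 3, the library with the fewest symbols above 0. Without that library the log2 difference from DMSO was -2.09 in place of -2.52, and 8 of the 10 members were lower with 30 nM SAR439859 in place of 9, SIAH2 being the one lost. The log2 differences were -2.66 with 300 nM SAR439859 (SE 0.378; limma, adjusted p = 4.22e-06) and -0.21 with 300 nM AZD9496 (95% interval -0.98 to 0.56; limma, adjusted p = 0.83). At these levels the pseudocount sets the size: with 0.1 in place of 1 the difference with 30 nM SAR439859 was -4.08. The falls with fulvestrant (-1.39 and -1.64 at 30 and 300 nM) then missed the threshold (limma, adjusted p = 0.139 and 0.0655), as did GDC-SAR minus GDC-0810 at both doses (0.151 and 0.339). AZD-SAR minus AZD9496 and AZD-SAR minus GDC-0810 at 30 nM also missed it (limma, adjusted p = 0.0628 and 0.199). So did GDC-SAR minus AZD9496 at 300 nM (limma, adjusted p = 0.11) and AZD9496 minus fulvestrant at both doses (0.279 and 0.294).

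SIAH2, a ubiquitin ligase gene (ENSG00000181788, chromosome 3, 150741127 to 150763477, minus strand), had small differences from DMSO that did not separate the ligands with all libraries in the fit. It averaged 46.7 ± 10.8 TPM with 300 nM fulvestrant, 50.4 ± 5.15 TPM with SAR439859, 51.3 ± 6.45 TPM with GDC-SAR, 56.6 ± 7.82 TPM with AZD-SAR, 48.4 ± 0.997 TPM with GDC-0810 and 49.3 ± 8.35 TPM with AZD9496, against 76.2 ± 8.12 TPM with DMSO (SD, n = 3 each). All 36 treated libraries lay below the 3 DMSO libraries at 71.0, 72.0 and 85.5 TPM. Group by group, 8.39% to 21.9% of all symbols tested lay so, and the share over all groups was not counted. Even so, only 7 of the 12 comparisons were called, with log2 differences from -0.71 to -0.34 over the 12. Each of the 7 calls was lost without at least 1 single library (limma, adjusted p from 0.0531 to 0.198 where lost). With no expression filter 4 of the 7 were lost (limma, adjusted p from 0.0536 to 0.120), and median-of-ratios scaling added 4 others.

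CA12, the gene of carbonic anhydrase 12, a membrane enzyme of pH control (ENSG00000074410, chromosome 15, 63321378 to 63382161, minus strand), was the one member called higher than DMSO. At 30 nM it had 274, 276 and 299 TPM with fulvestrant and 154, 170 and 173 TPM with GDC-0810, against 209, 213 and 232 TPM with DMSO. The 3 groups did not overlap. The log2 difference from DMSO was 0.38 with 30 nM fulvestrant (SE 0.124; limma, adjusted p = 0.0316), 0.34 with 30 nM SAR439859 (limma, adjusted p = 0.0429), -0.40 with 30 nM GDC-0810 (limma, adjusted p = 0.0266) and -0.47 with 300 nM GDC-0810 (limma, adjusted p = 0.00984). Without 1 library the adjusted p of the 3 values at 30 nM rose as high as 0.125, 0.234 and 0.130, so each of these calls depended on single libraries. The fall with 300 nM GDC-0810 was also lost without replicate 1 of that group (-0.34; limma, adjusted p = 0.108) and with only the libraries compared in the fit (0.0766). With 30 nM AZD9496 the value was 0.06, and it changed sign to -0.14 under median-of-ratios scaling, which moved the median of all symbols by -0.17 in that comparison.

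The ligands were then compared with each other at matched doses. An F test among the 6 ligands, which leaves out DMSO, called 9 of 10 members at 30 nM and 9 of 10 at 300 nM, all but SIAH2, where 5.11% and 4.91% of all symbols were called. RARA had the 13th and 11th smallest p of the 14404 symbols at the 2 doses (limma, adjusted p = 1.79e-09 and 1.00e-08), and CELSR2 the 23rd and 13th. For SIAH2 the adjusted p values were 0.665 and 0.869 (limma).

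Each dose has 15 pairs of ligands, so 10 genes gave 150 gene and pair combinations. Of these, 60 were called at 30 nM and 66 at 300 nM, where 1.68% and 2.06% of all such combinations were called over the 14404 symbols. Adjusting over all symbols and all 15 pairs together gave 62 and 63. With only the 6 libraries of each pair in its fit, the calls dropped to 30 and 13. The calls sat almost wholly between the scaffold donors on one side and fulvestrant, SAR439859, GDC-SAR and AZD-SAR on the other. Across that line, 59 of 80 (73.8%) were called at 30 nM and 65 of 80 (81.2%) at 300 nM, where 3.1% and 3.72% of all combinations were called. Within the 2 sides, 1 of 70 was called at each dose (1.43%), where 0.0496% and 0.16% of all were called. This line was drawn with the values known, so the counts describe it and do not test it.

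The call within a side at 30 nM was NPY1R, at 7.38 ± 1.93 TPM with GDC-SAR and 1.87 ± 0.231 TPM with SAR439859 (log2 difference 1.52, 95% interval 1.09 to 1.96; limma, adjusted p = 0.000858). With only these 6 libraries in the fit NPY1R was not called (limma, adjusted p = 0.645), and at 300 nM the difference was 0.65 and was not called. The call within a side at 300 nM was RARA, at 35.7 ± 2.21 TPM with AZD9496 and 25.3 ± 3.42 TPM with GDC-0810 (log2 difference 0.49, 95% interval 0.23 to 0.74; limma, adjusted p = 0.0482). For RARA the adjusted p missed the threshold when any of 5 of the 6 libraries compared was left out (limma, up to 0.362) and under median-of-ratios scaling (0.0744). Adjusted over all 15 pairs together, NPY1R and RARA were also called higher with 30 nM AZD-SAR than with 30 nM SAR439859 (limma, adjusted p = 0.03 and 0.018), and RET higher with 30 nM GDC-SAR than with 30 nM SAR439859 (0.0445). Median-of-ratios scaling called RARA higher with both hybrids than with SAR439859 at 30 nM (limma, adjusted p = 0.0171 for GDC-SAR and 0.0208 for AZD-SAR), and RET higher with GDC-SAR (0.0488).

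**Figure D3:**
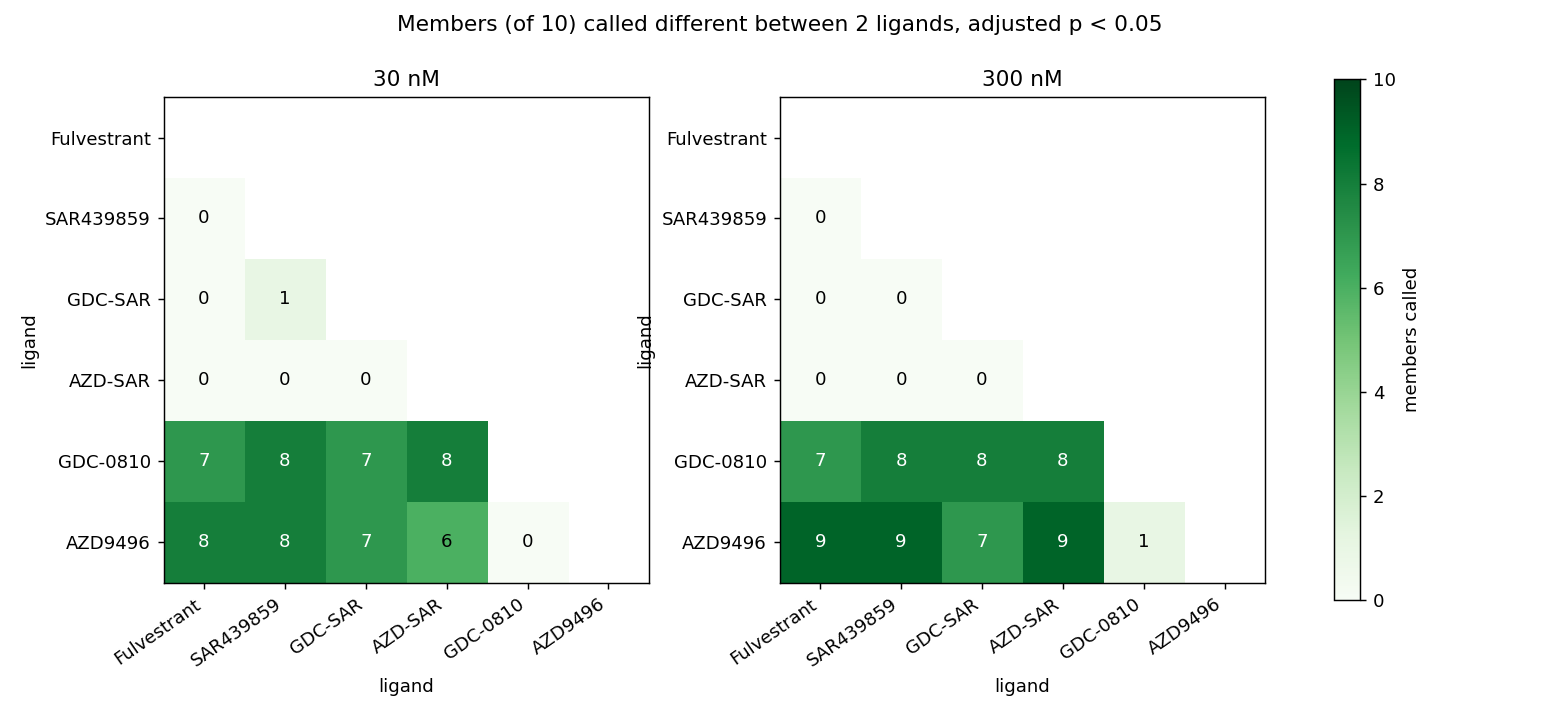
Number of the 10 genes called different between each pair of ligands (rows and columns) at 30 nM (left) and 300 nM (right), adjusted p under 0.05. Pairs of GDC-0810 or AZD9496 with any of the other 4 ligands hold 6 to 9 genes, and every other pair holds 0 or 1.

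SAR439859 differed from AZD9496 in 8 members at 30 nM and 9 at 300 nM, where 5.35% and 7.11% of all symbols were called, and from GDC-0810 in 8 and 8, where 6.16% and 2.46% were called. AZD-SAR differed from GDC-0810 in 8 and 8 (1.65% and 1.74% of all symbols), and GDC-SAR from AZD9496 in 7 and 7 (4.46% and 3.62%). GDC-0810 differed from fulvestrant in 7 and 7 (2.25% and 2.6%), and AZD9496 from fulvestrant in 8 and 9 (1.97% and 2.4%). CA12 was among the members called against GDC-0810 in each of its 8 comparisons with the other 4 ligands over both doses, whereas TFF1 was called against AZD9496 in 7 of 8 and against GDC-0810 in 0 of 8. The missing TFF1 call was AZD-SAR minus AZD9496 at 30 nM. Those of GDC-SAR minus AZD9496 were lost under joint adjustment (limma, adjusted p = 0.0603 and 0.0689). Leaving out most single libraries also lost them (limma, adjusted p up to 0.118 at 30 nM and 0.248 at 300 nM). That of AZD9496 minus fulvestrant at 30 nM was lost with no expression filter (limma, adjusted p = 0.0514) and under median-of-ratios scaling (0.0553). It was also lost without any single library of the pair (limma, adjusted p from 0.0615 to 0.136). At 300 nM it was lost without replicate 2 of fulvestrant (limma, adjusted p = 0.164) or replicate 1 of AZD9496 (0.064). Under median-of-ratios scaling TFF1 was called for SAR439859 minus GDC-0810 at 30 nM (limma, adjusted p = 0.0265). With only the libraries of each pair in its fit, the members called at 30 and 300 nM were 0 and 7 for SAR439859 with AZD9496, 0 and 1 for SAR439859 with GDC-0810, and 4 and 0 for AZD-SAR with GDC-0810. They were 6 and 2 for GDC-SAR with AZD9496, 7 and 0 for GDC-0810 with fulvestrant, and 8 and 3 for AZD9496 with fulvestrant.

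By library, the 6 values of the scaffold donors lay wholly above the 12 of the other 4 ligands for 6 genes at 30 nM (PGR, GREB1, CELSR2, RAPGEFL1, RARA and RET) and for 7 at 300 nM (these and NPY1R), where 1.29% and 1.02% of all symbols tested did so. CA12 lay wholly below at 30 nM, at 154 to 237 TPM against 240 to 327 TPM, where 0.389% of all symbols did so. At 300 nM its ranges overlapped, at 130 to 197 TPM against 195 to 304 TPM. TFF1 and SIAH2 overlapped at both doses.

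Fulvestrant, a steroidal degrader, was not told apart from SAR439859, GDC-SAR or AZD-SAR by any of the 10 genes at either dose (limma, adjusted p under 0.05 for 0 of 60 combinations). Over all symbols, 0.0139% were called between SAR439859 and fulvestrant at 30 nM, and 0.0555% between AZD-SAR and SAR439859, with 0 members. At an unadjusted p under 0.05, SAR439859 against fulvestrant had 4 genes at 30 nM and 1 at 300 nM, GDC-SAR 1 and 0, and AZD-SAR 1 and 0. This does not show that they act alike: the 95% intervals over the 10 genes and these 3 pairs reached from -1.90 to 1.23 at 30 nM and from -1.79 to 0.76 at 300 nM. With GDC-0810 in place of fulvestrant, PGR was 1.54 higher at 300 nM (limma, adjusted p = 1.74e-05), and CA12 was 0.74 lower.

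Ranked by mean TPM from lowest to highest, the ligands followed a like order for most genes. SAR439859 ranked lowest for 7 genes at 30 nM and 6 at 300 nM, AZD9496 highest for 6 and 5, and GDC-0810 highest for 3 at each dose (PGR, GREB1 and NPY1R). These ranks use TPM without further scaling between libraries. For AZD9496 minus GDC-0810 the members had a median log2 difference of 0.28 at 30 nM and 0.19 at 300 nM. Over all symbols tested that median was 0.16 and 0.10, and its part in the order of these 2 ligands was not tested. The scaffold donors held the top 2 ranks for 9 genes at 30 nM and 8 at 300 nM. The exceptions were CA12, where they held the lowest 2 and fulvestrant the highest, and SIAH2 at 300 nM. The order of all 15 pairs was the same at both doses for CA12, NPY1R, CELSR2 and RAPGEFL1. It was the same for 14 pairs in RARA, 13 in RET, 12 each in PGR, GREB1 and TFF1, and 7 in SIAH2.

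Neighbours in these orders mostly could not be told apart. Of 100 neighbouring pairs over 10 genes and 2 doses, 10 were called different, and 9 of these stood where the scaffold donors meet the other 4 ligands. The exception was RARA between GDC-0810 and AZD9496 at 300 nM. Among fulvestrant, SAR439859, GDC-SAR and AZD-SAR no neighbours were called, and the only call between ranks further apart was that of NPY1R between SAR439859 and GDC-SAR at 30 nM, with the further calls under joint adjustment and scaling given above.

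**Figure D4:**
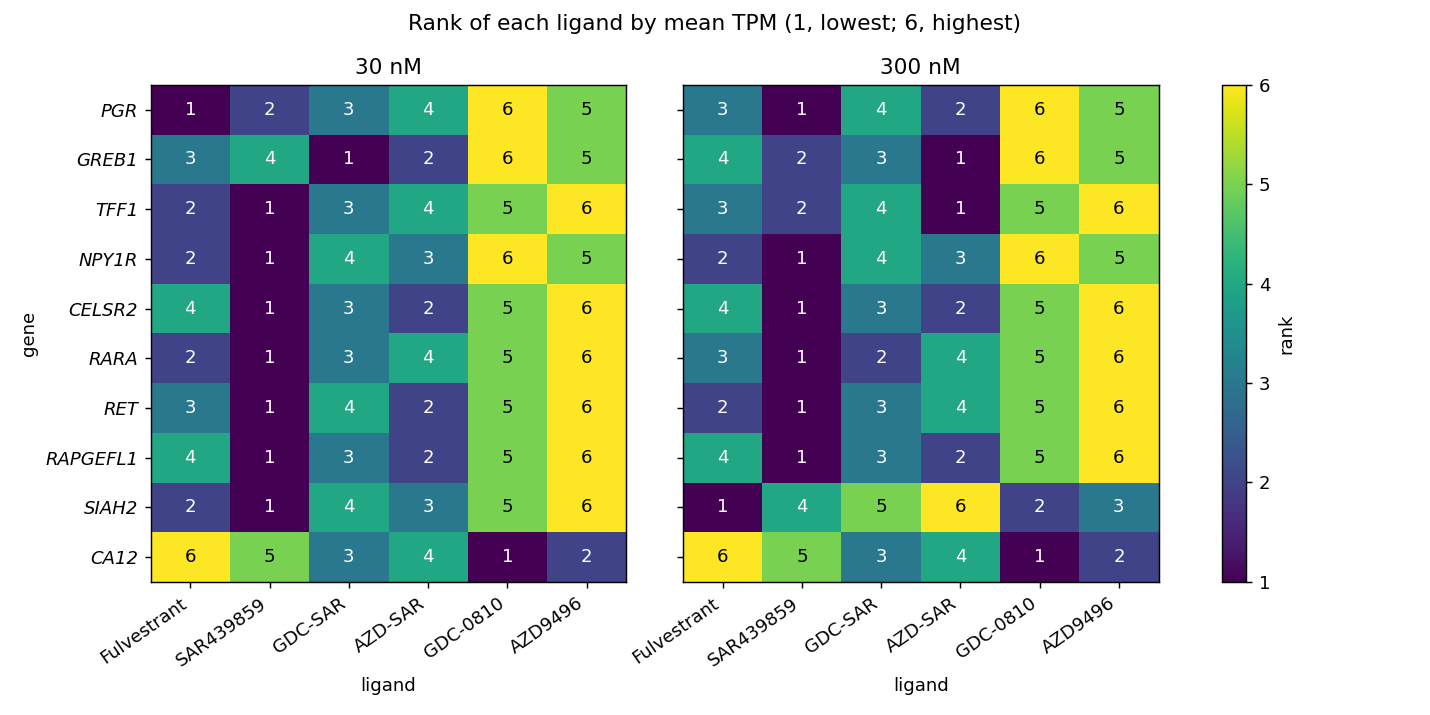
Rank of each ligand (columns) by mean TPM for each gene (rows) at 30 nM (left) and 300 nM (right), from 1 (lowest) to 6 (highest). GDC-0810 and AZD9496 hold ranks 5 and 6 in all rows except CA12 and, at 300 nM, SIAH2.

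Most of the 10 genes were called between a hybrid and its scaffold donor, a pair read here, from the names, as differing in the side chain. On the GDC-0810 scaffold, GDC-SAR minus GDC-0810 was called for 7 genes at 30 nM and 8 at 300 nM, where 1.28% and 1.25% of all symbols were called. On the AZD9496 scaffold, AZD-SAR minus AZD9496 was called for 6 and 9 genes, where 1.68% and 8.57% of all symbols were called. GREB1 averaged 1.52 ± 0.529 TPM with 300 nM GDC-SAR and 6.47 ± 1.13 TPM with 300 nM GDC-0810, a difference of -1.57 (95% interval -2.10 to -1.05; limma, adjusted p = 0.000653). CELSR2 averaged 12.998 ± 4.41 TPM with 300 nM AZD-SAR and 49.1 ± 5.37 TPM with 300 nM AZD9496, a difference of -1.88 (95% interval -2.27 to -1.50; limma, adjusted p = 1.16e-07).

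CA12 differed in the other direction between hybrid and donor. It averaged 239 ± 21.3 TPM with 300 nM GDC-SAR and 158 ± 24.6 TPM with 300 nM GDC-0810, a difference of 0.60 (95% interval 0.35 to 0.86; limma, adjusted p = 0.00743). That call was lost without replicate 1 of 300 nM GDC-0810 (0.47; limma, adjusted p = 0.112) or replicate 3 of 300 nM GDC-SAR (0.53; 0.0692), and the call at 30 nM without replicate 1 of 30 nM GDC-0810 (0.0574). On the AZD9496 scaffold the difference at 300 nM was 0.40 (limma, adjusted p = 0.0437), with overlapping libraries, and it was not called over all 15 pairs together (0.118). TFF1 was not called on the GDC-0810 scaffold at either dose (-0.17 and -0.30, 95% intervals -0.57 to 0.23 and -0.70 to 0.10). It averaged 579 ± 129 TPM with 300 nM AZD-SAR and 1109 ± 63.6 TPM with 300 nM AZD9496 (log2 difference -0.96; limma, adjusted p = 0.00263). At 30 nM the TFF1 difference on that scaffold was -0.70 and was not called (limma, adjusted p = 0.0664). SIAH2 was called on neither scaffold, with differences from -0.12 to 0.20.

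These counts rested on the estimate of spread shared by all 39 libraries. With only the 6 libraries compared in the fit, GDC-SAR minus GDC-0810 was called for 1 member at 30 nM and 0 at 300 nM, and AZD-SAR minus AZD9496 for 4 and 0 members. At an unadjusted p under 0.05 those fits held 8, 8, 9 and 8 of the 10 genes, in the order given.

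**Figure D5:**
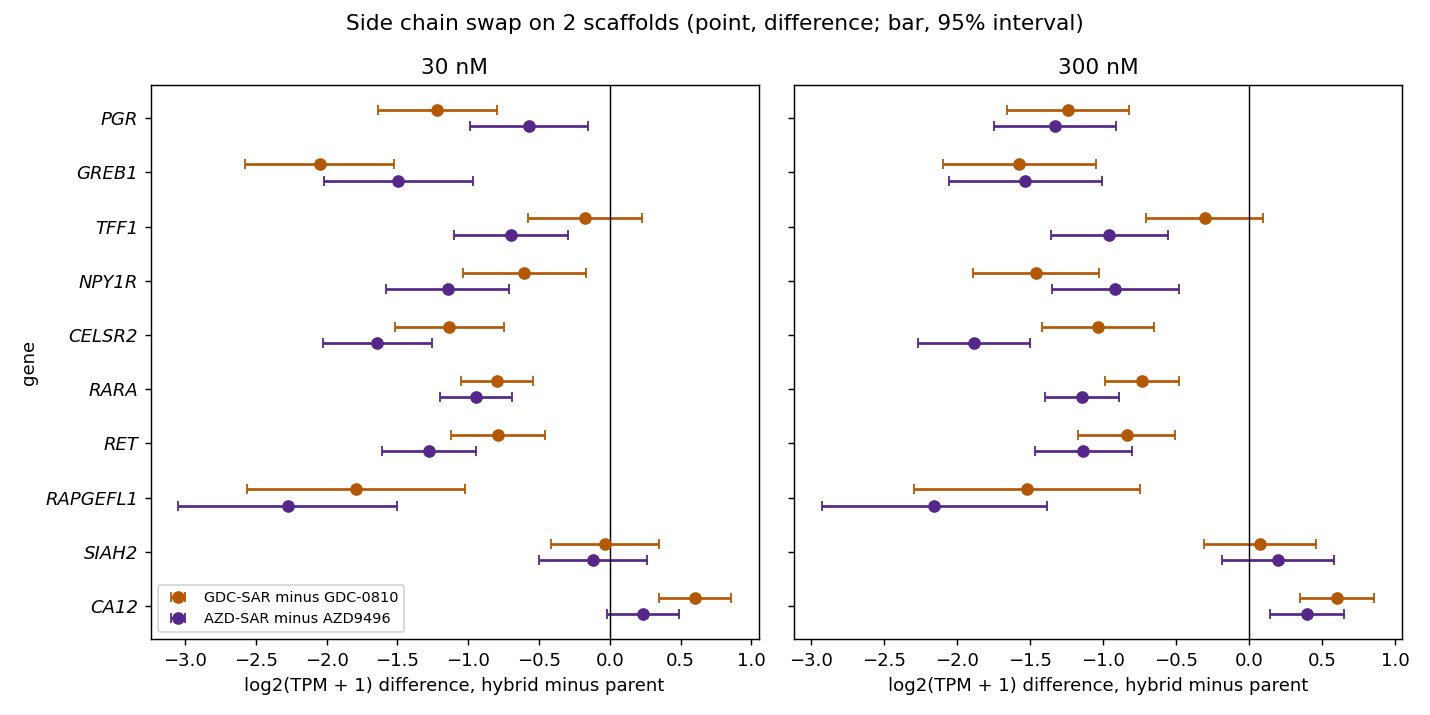
Log2(TPM + 1) difference of each hybrid from its scaffold donor at 30 nM (left) and 300 nM (right), GDC-SAR minus GDC-0810 (orange) and AZD-SAR minus AZD9496 (purple); points are differences and bars 95% intervals from the fit over all 39 libraries. GREB1 lies at -2.05 and -1.49 at 30 nM, SIAH2 near 0, and CA12 to the right of 0 at 0.60 and 0.23.

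Changing the scaffold with the side chain held fixed gave few differences. AZD-SAR minus GDC-SAR was called for 0 of 10 genes and for 0% of all symbols at both doses (limma), and 1 gene at 30 nM (NPY1R, -0.65, 95% interval -1.08 to -0.21) and 0 at 300 nM had an unadjusted p under 0.05. Intervals for the other 9 genes at 30 nM reached from -0.73 to 0.82, both bounds set by RAPGEFL1. AZD9496 minus GDC-0810 was called for 0 genes at 30 nM, with 4 at an unadjusted p under 0.05, and for 1 at 300 nM (RARA, above), where 0.0208% and 1.12% of all symbols were called.

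Whether the exchange of side chain acted differently on the 2 scaffolds was tested directly, as the change on the GDC-0810 scaffold minus that on the AZD9496 scaffold. No member was called at either dose (limma), where 0% and 0.00694% of all symbols were called, and 3 genes at each dose had an unadjusted p under 0.05. At 30 nM these were PGR (-0.65), CA12 (0.37) and RET (0.49), and at 300 nM TFF1 (0.66), CELSR2 (0.85) and RARA (0.41). CELSR2 at 300 nM (95% interval 0.30 to 1.39; limma, adjusted p = 0.189) became a call of 1.08 (adjusted p = 0.0269) without replicate 3 of 300 nM AZD-SAR, which had 17.6 TPM beside 8.77 and 12.7 TPM.

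Between the doses no change was detected. The 300 minus 30 nM difference was called for 0 of 10 genes with any of the 6 ligands and for 0% of all symbols (limma). Unadjusted, p was under 0.05 for CA12 with AZD9496 (-0.32), PGR with SAR439859 (-0.48), NPY1R with GDC-SAR (-0.55) and PGR with AZD-SAR (-0.48), and for no gene with fulvestrant or GDC-0810. PGR averaged 1.69 ± 0.179 TPM with 300 nM and 2.87 ± 1.25 TPM with 30 nM SAR439859, and the 95% interval of its difference was -0.90 to -0.06.

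A further 46 symbols of estrogen-induced genes were listed from general knowledge with earlier results of these data in view. CCN5 and WISP2 among them name 1 gene, so the list held 45 genes, all in the table, and 35 were tested. With 300 nM they fell in number 26 with fulvestrant, 28 with SAR439859, 25 with GDC-SAR, 25 with AZD-SAR, 21 with GDC-0810 and 13 with AZD9496. Over all symbols tested, 8.12%, 12.8%, 10.5%, 12.8%, 9.04% and 2.21% fell, in that order. The median log2 differences of the 35 genes were -0.998, -1.07, -0.96, -1.04, -0.63 and -0.51, in the same order. TFF3, a trefoil peptide gene related to TFF1, was the only one called higher, by 0.47 and 0.48 with 30 and 300 nM GDC-0810 and by 0.43 with 300 nM AZD-SAR.

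EGR3, an immediate-early transcription factor gene, had the largest average difference at 300 nM, from -4.49 with GDC-SAR and with fulvestrant to -2.05 with AZD9496. KRT13, a keratin gene, averaged 3.67 ± 1.51 TPM with 300 nM SAR439859 and 31.1 ± 3.69 TPM with 300 nM AZD9496, against 46.8 ± 4.75 TPM with DMSO. Its log2 difference was -3.40 with SAR439859 and was called, and it was -0.58 with AZD9496 and 0.02 with GDC-0810, neither called. ELOVL2, a fatty acid elongase gene, HSPB8, a small heat shock protein gene, and PKIB, an inhibitor of protein kinase A, fell with all 6 ligands at 300 nM, by 2.82, 2.09 and 1.71 with SAR439859. ABCA3, BCL2 and IGF1R had the smallest averages, and of these only BCL2 was called at 300 nM, at -0.33 with SAR439859 and with AZD-SAR.

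For each gene, the symbols with the most similar log2 differences from DMSO over the 12 groups were looked up among 9627 symbols averaging 5 TPM or more, by the mean absolute gap. GREB1 was nearest to PGR (gap 0.30). GREB1 averaged under 5 TPM and so was no candidate for PGR, whose nearest candidate was PTGES (0.39), a prostaglandin synthase gene. TFF1 was nearest to CDK1, a cell cycle kinase gene (0.14), and NPY1R to DSCC1, a gene of sister chromatid cohesion (0.20). CELSR2 was nearest to SLC9A3R1 (0.14), RAPGEFL1 to STC1 (0.30), RARA to GLA (0.10), and RET to SLC2A1 (0.09) and CCND1 (0.10). CA12 was nearest to MEGF9 (0.08) and SIAH2 to DNAJA1 (0.07). These gaps share the 3 DMSO libraries and describe likeness only. Some replication-dependent histone genes also ranked near PGR, TFF1, NPY1R and CELSR2, but their near-identical copies make their values uncertain.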

How the data were processed

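RNA sequencing of 39 HCC1428-LTED libraries was analysed from 1 table of TPM values per gene symbol that the authors deposited, with every column summing to 1000000. Per the submitters' processing notes, STAR and GRCh38 were used. For the counting tool, its annotation and its use of strand, nothing is given in the sources used here. Depth is unknown. Samples were grouped by their labels.

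From these values log2(TPM + 1) was tested with limma 3.58.1 in R 4.3.3: 1 mean per group, all 39 libraries sharing 1 estimate of spread (26 residual degrees of freedom), a mean-variance trend, and 14404 symbols averaging 1 TPM or more. P-values were adjusted by Benjamini-Hochberg over these symbols within each comparison, intervals are 95%, and a call is an adjusted p under 0.05. The scripts were tested on simulated data. Comparisons were each ligand and dose with DMSO (12), 300 with 30 nM, 15 ligand pairs per dose, an F test among ligands, and the side chain by scaffold interaction. Alternatives were a pseudocount of 0.1, no filter, median-of-ratios scaling, only the libraries compared, joint adjustment, and leaving out each library. Named genes were the 10 members, ESR1, the 3 symbols nearest to each member in log2 differences, and from the list of other estrogen-induced genes the 5 with the largest and 3 with the smallest average at 300 nM; TFF3 was named after its values were seen. The members and lists were chosen with earlier results of these data known. Gene positions are from GENCODE v29 on GRCh38.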

Additional observations from a re-analysis of the deposited data

How the results depend on the processing

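Under a pseudocount of 0.1, no expression filter, median-of-ratios scaling and joint adjustment, the counts of members lower than DMSO, called in the F tests, for the side chain exchange and over all 15 pairs stayed within 1.5 times their values. Some counts for single pairs or genes did not: RARA between AZD9496 and GDC-0810 at 300 nM went to 0 calls with no filter and under scaling, GDC-SAR minus SAR439859 at 30 nM to 3 members under scaling, AZD-SAR minus SAR439859 at 30 nM to 2 under joint adjustment, and SIAH2 from 7 calls to 3 with no filter and 11 under scaling. No called difference reversed under any alternative. Estimating the spread from only the libraries compared lowered the members called for GDC-SAR minus GDC-0810 to 1 at 30 nM and 0 at 300 nM (7 and 8 with all libraries). For AZD-SAR minus AZD9496 at 300 nM it lowered them to 0, against 9 with all libraries. Calls of members among the ligand pairs fell to 30 at 30 nM and 13 at 300 nM, against 60 and 66. These fits have fewer samples, and 8, 8 and 8 members kept an unadjusted p under 0.05 in the 3 side chain comparisons named. Leaving out 1 library in turn gave 4 to 7 members lower with 30 nM GDC-0810, 0 to 1 in the interaction at 300 nM, and 56 to 66 and 58 to 70 pair calls at 30 and 300 nM. It gave 7 to 8 members lower with 300 nM GDC-0810, against 9 with all libraries. For GDC-SAR minus GDC-0810 at 300 nM it gave 6 to 7 members called, against 8 with all libraries. Over single genes, 2994 of 3120 leave-one-out results kept their direction and side of the threshold, 113 lost a call and 13 gained one. With depth unknown, no counting error could be given for genes near 1 TPM, RAPGEFL1 and GREB1 among them. No paired analysis was possible because the labels give no replicate numbers, and numbers here follow accession order.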
